A study of Homo sapiens with 4 samples.

Results

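The Tribbles and C/EBP genes were followed in THP1 cells that had received a miR-511-5p mimic. They comprise 8 genes, chosen by the gene name in the scanner files: the pseudokinase genes TRIB1, TRIB2 and TRIB3 and the transcription factor genes CEBPA, CEBPB, CEBPD, CEBPE and CEBPG. Each was measured by 1 probe, so that 8 of 34127 probes and 8 of 27193 gene names were members. All samples came from THP1, a line of human monoblasts from an AML that carries the MLL-AF9 fusion. One transfection with 30 nM of mimic was given, with miR-511-5p in one group (2 arrays) and negative control #1, a mimic used as the control treatment, in the other (2 arrays). All cells were then kept in low-serum DMEM/Ham's F12 medium, and total RNA was harvested on day 2. Each of 2 experiments gave 1 array per mimic.

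Tribbles proteins resemble kinases but act mainly as scaffolds that bring the ubiquitin ligase COP1 to substrates. C/EBP alpha is a substrate of TRIB1 and TRIB2, and its degradation blocks granulocytic and monocytic differentiation and can cause AML in mice. C/EBP proteins are basic leucine zipper factors that bind DNA as homo- or heterodimers and switch on myeloid genes in sequence, with CEBPA acting early and CEBPE late in granulocytes. TRIB2 is known as a miR-511 target from other cells, which raises the question of how the family's transcripts behave when this miRNA is supplied. Degradation of a C/EBP protein leaves no direct trace on an expression array, which measures RNA alone. The mature miRNA (RefSeq, GRCh38.p14 chr10:17845122-17845142, plus strand) is printed below because the mimic supplies this strand, with bases 2 to 8, the seed, in capitals.
hsa-miR-511-5p: gUGUCUUUugcucugcaguca
No other mature miRNA in the RefSeq table used here carried this seed. The match to the seed, AAAGACA, lay within 331 of 34127 probes (0.97%) and within 0 of 8 member probes. A probe covers only a short stretch of its transcript, so this says nothing about sites elsewhere.

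RNA was labelled with a single dye and hybridised to Agilent Human Whole Genome arrays, all on 1 slide. Levels are given as log2 of the processed intensity after quantile normalisation, and they compare arrays, not probes: brightness also depends on the probe. Between 64.8% and 69.3% of all probes were well above background per array, meaning that the scanner software placed the spot clearly over its local background. Of 7 THP1 (myeloid) marker genes with a probe, 7 were well above background on all 4 arrays, with a summed linear level of 27468 to 29588 with miR-511 and 26690 to 28006 with the control mimic. Of 3 epithelial and 3 fibroblast markers none was well above background on all arrays. Markers of other blood lineages, 3 per list, were partly detected. On all 4 arrays 3 erythroid, 2 B cell, 1 T cell and 1 megakaryocytic markers were well above background, so these lists do not set the cells apart from those lineages. The number of arrays limits the precision: an exact permutation test of 2 against 2 cannot give a p under 0.333, so the tests given are those of limma, fitted over 22638 tested probes.

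None of the 7 testable members passed the threshold between the mimics. TRIB1, TRIB3, CEBPA, CEBPB, CEBPD, CEBPE and CEBPG were well above background on all 4 arrays, whereas TRIB2 was well above background on 0 of 4. At an unadjusted limma p below 0.05, 0 of 7 members were called, beside 498 of all tested probes (2.20%). The study used this threshold together with a further condition over identical replicate probes, which was not applied here and would concern CEBPB alone among the members. After Benjamini-Hochberg adjustment 0 members and 0 probes (0%) passed in limma, and the smallest adjusted p of any probe was 0.790. With the experiment as a block the unadjusted call covered 3.95% of tested probes and still 0 of 7 members. The arrays of the mimics overlapped for every one of the 7 members, while they did not overlap for 25.7% of tested probes. The log2 fold change (log2FC, miR-511 minus control mimic) had a median size of 0.054 over the 7 members and 0.079 over all tested probes, with a median standard error of 0.13 and 0.12. In total RNA from a culture, fewer expressing cells and less RNA per cell cannot be told apart.

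**Figure D1:**
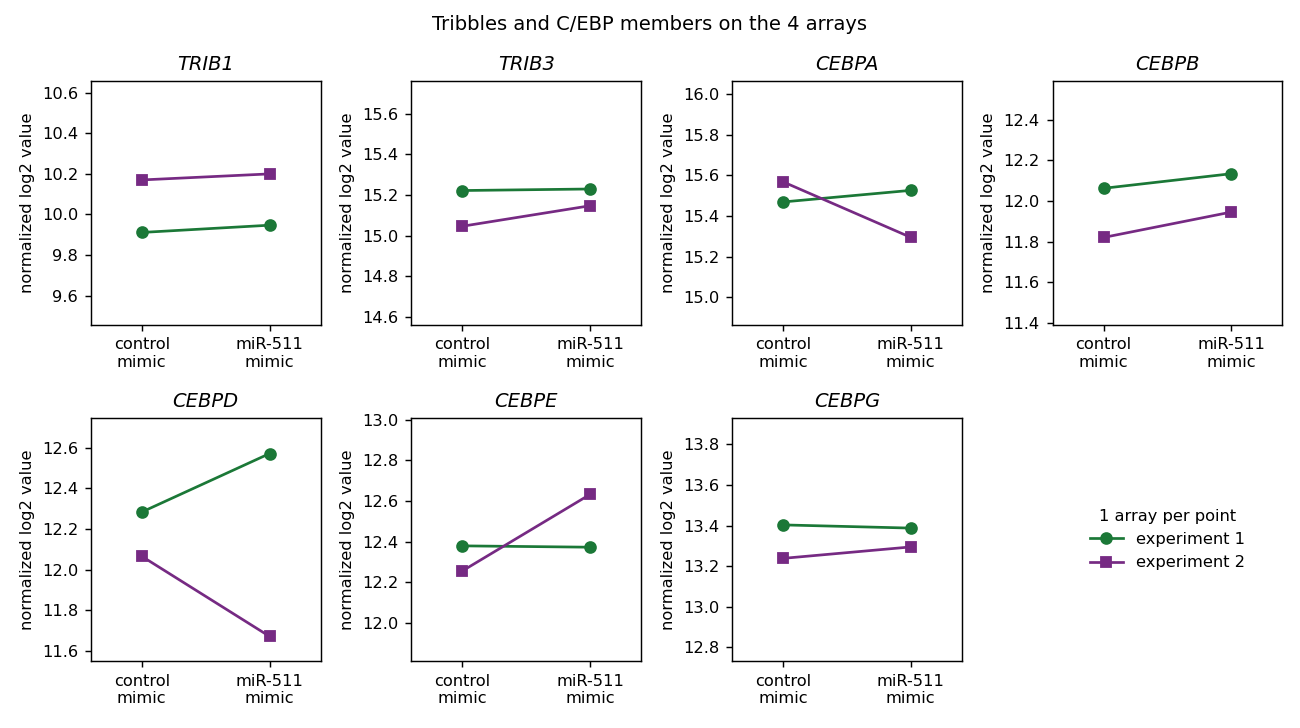
Log2 processed intensity (quantile normalised) of the 7 testable members on each of the 4 arrays, with 1 panel per gene, 1 point per array and a line joining the arrays of an experiment. CEBPD spans the widest range, 0.90 on the log2 scale, and in every panel the miR-511 and control arrays overlap.

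TRIB1 promotes degradation of C/EBP alpha and is known from myeloid leukaemia and macrophage biology. Its probe (hg19 chr8:126450454-126450513, plus strand) read 9.95 with miR-511 and 9.91 with the control mimic in experiment 1, and 10.20 and 10.17 in experiment 2, as log2 intensity. The arrays of each experiment thus lay close together and experiment 2 lay higher. The log2FC was 0.033 ± 0.15 (SE, n = 2 arrays per mimic), with a 95% interval of −0.39 to 0.45, or 0.76-fold to 1.37-fold. This spread includes the shift between experiments. With the experiment as a block the SE was 0.077 and the 95% interval −0.21 to 0.28. The signal was 44.4 to 62.2 times its local background.

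TRIB2, the relative best known for causing AML when overexpressed, had no measurable level. Its probe (hg19 chr2:12880797-12880856, plus strand) gave mean raw signals of 36.6 and 37.4 in experiment 1 and 41.7 and 42.3 in experiment 2, in the order miR-511 and control, over local backgrounds of 22 to 25. The scanner software did not rate any of these signals as different from background. It replaced them by surrogate intensities of 2.52 to 2.89, while the dimmest spot rated well above background read 9.13 to 10.9 depending on the array. With neither mimic was the probe well above background, so that no fold change was given, and an effect of the mimic on TRIB2 was not detectable on these arrays.

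TRIB3 encodes a stress-responsive family member that is induced downstream of ATF4 and DDIT3. The probe (hg19 chr20:378107-378166, plus strand) read 15.23 with miR-511 and 15.22 with control in experiment 1, and 15.15 and 15.05 in experiment 2. All 4 arrays lay within 0.18 on the log2 scale, with the control array of experiment 2 lowest. Its log2FC was 0.054 ± 0.11 (SE), and the 95% interval ran from −0.25 to 0.36. TRIB1 and TRIB3 were both slightly higher with miR-511 in each experiment, by 0.036 and 0.030 for TRIB1 and by 0.0076 and 0.10 for TRIB3. The ranges over all 4 arrays were 0.29 for TRIB1, most of it the shift between experiments, and 0.18 for TRIB3. Neither gene passed the unadjusted limma threshold, with or without the experiment as a block.

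CEBPA, the master factor of early myeloid differentiation and the substrate of TRIB1 and TRIB2, was measured at 1709 to 2113 times the local background. The probe (hg19 chr19:33791353-33791412, minus strand) read 15.53 with miR-511 and 15.47 with control in experiment 1, and 15.29 and 15.57 in experiment 2. The miR-511 arrays of both experiments bracketed the control of experiment 1, and the lowest array was miR-511 in experiment 2. The direction therefore turned between experiments, from 0.057 to −0.27. Over both experiments the log2FC was −0.11 ± 0.12 (SE), with a 95% interval of −0.45 to 0.23 and a limma adjusted p of 1.00.

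CEBPB, an activator of macrophage and inflammatory genes, was printed 10 times per array, which gave a measure of the error within an array. Its log2 level (hg19 chr20:48808989-48809048, plus strand) was 12.13 with miR-511 and 12.06 with control in experiment 1, and 11.95 and 11.82 in experiment 2. Experiment 1 lay above experiment 2 with either mimic. The 9 spots used per array, 1 being marked as an outlier each time, had SDs of 0.080 and 0.10 in experiment 1 and of 0.027 and 0.051 in experiment 2. For all 738 tested probes printed 10 times, the median SD per array was 0.051 to 0.11. In experiment 1 the spots of the mimics overlapped, with miR-511 spots from 12.02 to 12.24 and control spots from 11.86 to 12.15. In experiment 2 the miR-511 spots ran from 11.89 to 11.97 and the control spots from 11.74 to 11.89. With the marked spots left out, the lowest of the former lay just above the highest of the latter. Spots on one array share the RNA and the hybridisation and are not replicates of the treatment. Over arrays, the log2FC was 0.098 ± 0.14 (SE), with a 95% interval of −0.28 to 0.48. The fit with the experiment as a block gave an SE of 0.079 and an interval of −0.15 to 0.35. When the marked spots were kept, the log2FC without the block was 0.036.

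**Figure D2:**
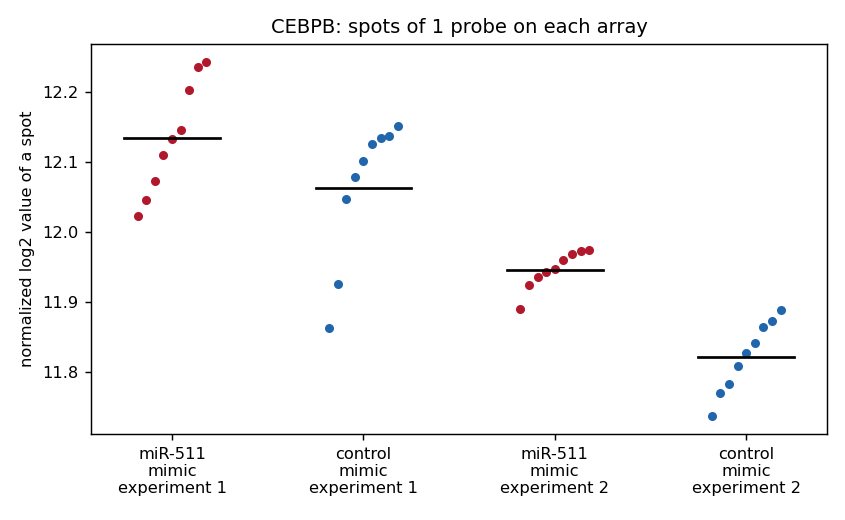
Log2 intensity of the 9 CEBPB spots used on each of the 4 arrays (1 point per spot), with a bar at their mean. The arrays of experiment 1 lie above those of experiment 2, and the spots of the mimics overlap in experiment 1.

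CEBPG, a short family member that lacks a classical activation domain and dimerises with other C/EBP and ATF4 proteins, lies next to CEBPA, with 82053 bases between their probes on hg19 chromosome 19. The probe (chr19:33873466-33873525, plus strand) read 13.39 with miR-511 and 13.40 with control in experiment 1, and 13.29 and 13.24 in experiment 2. Both mimics were lower in experiment 2, and their order changed between experiments. With a log2FC of 0.020 ± 0.11 (SE) and a 95% interval of −0.28 to 0.32, it had the smallest estimate of the 7. Promoter windows (RefSeq, GRCh38.p14, 250 bases before to 50 after a start site) were found for 6 of 8 members (not for TRIB1 and CEBPD), as 10 windows. They were searched on both strands for the C/EBP palindrome TTGCGCAA, the C/EBP-ATF composite element TGATGCAA and the CRE core TGACGTCA, which 0.151%, 0.866% and 1.85% of all 35116 windows contained. The only match was a composite element 42 bases before a CEBPG start site. The 100 bases upstream of that start (chr19:33374013-33374112, plus strand) are shown because they hold the one match among the 10 windows, with the element in capitals.
CEBPG upstream: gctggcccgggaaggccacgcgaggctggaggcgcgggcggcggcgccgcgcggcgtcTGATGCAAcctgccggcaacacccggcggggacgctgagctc
A letter match is not evidence of binding. ATF4, whose protein pairs with C/EBP factors on such elements, read 15.96 with miR-511 and 15.90 with control in experiment 1, and 16.03 and 16.09 in experiment 2 (log2FC 0.0045 ± 0.11, SE).

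CEBPE drives late granulocyte maturation and had the largest size of log2FC among the members, 0.19 ± 0.13 (SE), with a 95% interval of −0.18 to 0.55. In experiment 1 its probe (hg19 chr14:23586547-23586606, minus strand) read 12.37 with miR-511 and 12.38 with control, and in experiment 2 it read 12.63 and 12.26. The miR-511 array of experiment 2 stood above the other 3, which lay within 0.12. Of all tested probes, 80.1% had a smaller log2FC in size, and the unadjusted limma p was 0.235.

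CEBPD encodes a factor that is induced early by cytokines and inflammatory signals, and it varied most among the members. The probe (hg19 chr8:48649873-48649932, minus strand) read 12.57 with miR-511 and 12.28 with control in experiment 1, and 11.67 and 12.07 in experiment 2. The miR-511 arrays were thus the highest and the lowest, with both controls between them, and the range of 0.90 compares with a median range of 0.29 over the 7 members and 0.27 over all tested probes. The difference between the mimics was 0.29 in experiment 1 and −0.39 in experiment 2. Of all tested probes, 5% lay beyond 0.61 in size in experiment 1 and beyond 0.54 in experiment 2. The control arrays differed by −0.22 between experiments and the miR-511 arrays by −0.90, a size reached by 3.1% of tested probes. Over both experiments the log2FC of −0.053 ± 0.33 (SE) had a 95% interval of −0.97 to 0.86, the widest of the 7. Neither a loss nor a gain of about 1.8-fold lay outside it. The interval with the experiment as a block was −0.73 to 0.63. Without the miR-511 array of experiment 1 the log2FC was −0.50 at an unadjusted limma p of 0.0424, the only alternative that gave a call of a member between mimics. That fit holds 1 miR-511 array, which is assumed to vary like the 2 control arrays, whereas over all arrays the SD was 0.64 with miR-511 and 0.15 with control. Without the miR-511 array of experiment 2 the log2FC was 0.40. The miR-511 array of experiment 1 had the fewest probes well above background (64.8%) and the most marked spots (301). It also had the largest median spot SD (0.11) over probes printed 10 times. The part of this in the CEBPD values was not tested.

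The CEBPD probe is rich in G and C (70%). The 250 tested probes with a GC content of 66.7% to 73.3% had a median difference of −0.067 between the miR-511 arrays of the experiments, beside −0.030 for all tested probes. Between the control arrays of the experiments the median of these 250 probes was 0.044, opposite in sign to CEBPD. Between the mimics it was 0.097 in experiment 1 and −0.032 in experiment 2, with the signs of CEBPD. The part of base composition in the CEBPD values was not tested. The 3 detected probes with the pattern most like that of CEBPD, by the Euclidean distance of centred log2 values over 4 arrays and among 18240 probes, were those of TNXB (0.061), CIRBP (0.063) and HSD11B2 (0.078). CIRBP, a cold-inducible RNA-binding protein gene, read 9.69 with miR-511 and 9.45 with control in experiment 1, and 8.87 and 9.20 in experiment 2. With 4 arrays, closeness of patterns is a description only.

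**Figure D3:**
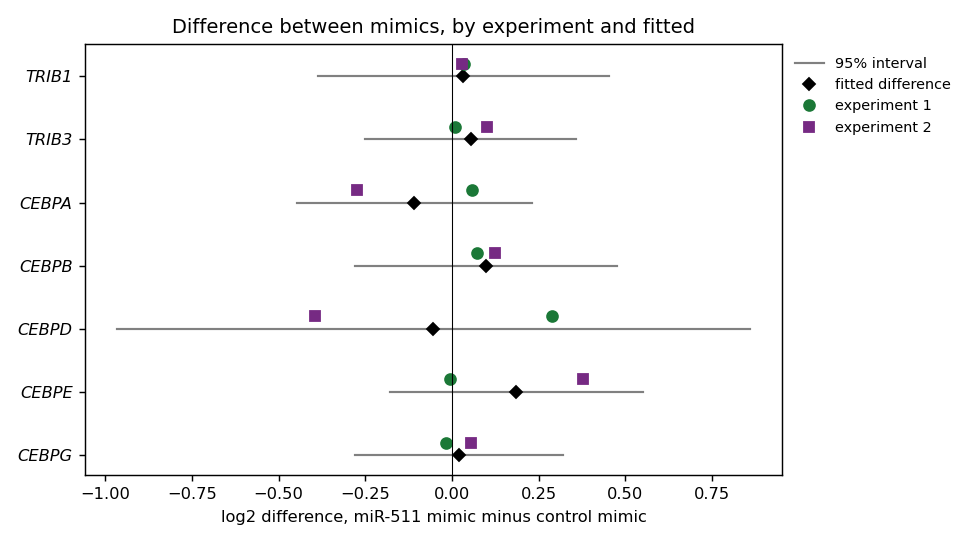
Log2 difference between miR-511 and control mimic for each testable member, with a point for each experiment and limma's log2FC over both experiments with its 95% interval. Every interval includes 0, and CEBPD, at 0.29 and −0.39, has the widest.

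Across the members, 5 of 7 had a log2FC above 0, beside 53.7% of all tested probes. The difference had the same direction in both experiments for TRIB1, TRIB3 and CEBPB, 3 of 7, beside 51.0% of tested probes.

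The experiments were compared in the same way, with the mimic as a covariate. In limma, 1 of 7 members passed an unadjusted p below 0.05 for experiment 2 minus experiment 1, where 11.6% of tested probes did, and after adjustment 0 members and 0% of tested probes passed. TRIB1 was that member: it rose by 0.26 ± 0.077 (SE) on the log2 scale, with an unadjusted limma p of 0.0458 and an adjusted p of 0.432. The arrays of experiment 1 and 2 did not overlap for TRIB1, TRIB3, CEBPB, CEBPD and CEBPG, 5 of 7, while this held for 48.9% of tested probes. CEBPD (−0.56 ± 0.21, SE) and CEBPB (−0.22 ± 0.079, SE) were lower in experiment 2 at unadjusted limma p-values of 0.0792 and 0.0721, and passed that threshold under some other settings. When marked spots were kept, the CEBPB estimate was −0.16. The estimates for TRIB3 and CEBPG were both −0.13 with SEs of 0.082 and 0.080. CEBPA and CEBPE, whose arrays overlapped between experiments, had −0.066 and 0.068. The experiments share a slide and a scan, and what else differed between them is not given in the sources used here.

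The genes around the family gave no call between the mimics. Of 38 listed pathway genes 37 had a probe and 32 were testable, and 0 of these passed the unadjusted threshold in either direction, beside the 2.20% of all tested probes. The log2FC of 31 of the 32 lay within 0.3 of 0, and their median was 0.029, beside 0.0098 for all tested probes. For a gene with several probes the brightest stands for it, and none of the 38 tested probes of these genes passed. At AKT2, MAP2K4 and CSF2RA another tested probe had a log2FC of the opposite sign. For MAP2K4 the brightest had −0.026 and the other 0.0093, and for CSF2RA these were 0.026 and −0.16.

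The ubiquitin ligase genes that act with Tribbles proteins were all detected. Of 6 genes 5 had a log2FC above 0, beside 53.7% of all tested probes, and the values ran from −0.0033 to 0.11. The direction was the same in both experiments for 3 of the 6, beside 51.0% of all tested probes. RFWD2, the gene of COP1, read 11.98 with miR-511 and 11.85 with control in experiment 1, and 11.79 and 11.76 in experiment 2 (log2FC 0.077 ± 0.11, SE). The 6 genes of kinases and factors bound by Tribbles proteins ranged from −0.096 to 0.087. AKT2, a kinase gene in that list, had 3 tested probes, with −0.096 at the brightest and −0.061 and 0.37 at the others. The probe with 0.37 read 9.24 on the miR-511 array of experiment 1 and 8.29 to 8.44 on the other arrays. Between experiments 1 of the 32 representative probes passed the unadjusted limma threshold, beside 11.6% of all tested probes. It was the brightest AKT2 probe, at −0.47 with an unadjusted limma p of 0.0109 and an adjusted p of 0.388. DDIT3, a C/EBP relative that inhibits its partners under stress, read 9.0 with miR-511 and 9.16 with control in experiment 1, and 8.87 and 8.90 in experiment 2. Its log2FC was −0.094 ± 0.13 (SE), and that of STK40, a Tribbles-related pseudokinase gene, was 0.032 ± 0.11 (SE).

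Myeloid genes known as C/EBP targets gave values on both sides of 0. Of 24 listed genes 23 had a probe and 18 were testable, 12 of them above 0 and 6 below, with a median of 0.029. On no array were the probes of LTF, LCN2 and MMP8, genes of neutrophil granule proteins, and of the cytokine genes IL6 and IL8 well above background. SPI1, the gene of the myeloid factor PU.1, had a log2FC of 0.11 ± 0.13 (SE). The receptor genes CSF1R and CSF3R had values of 0.069 ± 0.15 and 0.0087 ± 0.14 (SE). The lowest unadjusted limma p of the listed genes was 0.0837, for HP, which encodes haptoglobin (log2FC 0.30 ± 0.13, SE). S100A8, a calcium-binding alarmin gene named here after its values were seen, read 11.58 with miR-511 and 13.53 with control in experiment 1, and 13.40 and 13.56 in experiment 2. The first of these arrays stood apart, and the log2FC of −1.05 ± 0.64 (SE) had an unadjusted limma p of 0.171. That array had the fewest probes well above background (64.8%) and the most marked spots (301), and the part of this in the value was not tested. S100A9, on the same list, went the other way, by 0.14 in experiment 1 and 0.26 in experiment 2 (log2FC 0.20 ± 0.095, SE, unadjusted limma p 0.103).

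**Figure D4:**
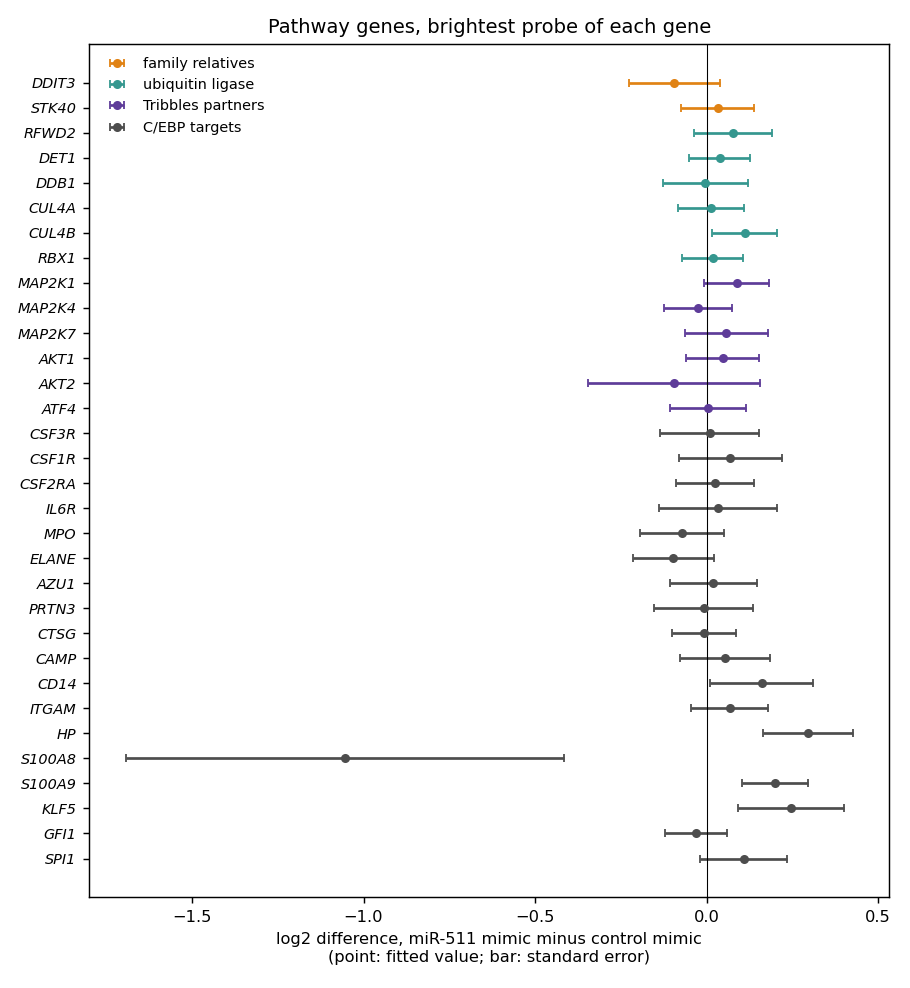
Limma's log2FC (miR-511 minus control mimic) of the 32 testable pathway genes, by list, with 1 point per gene and bars for the standard error. The points lie within 0.3 of 0, S100A8 at −1.05 being the exception, and no gene passed the unadjusted threshold.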

How the data were processed

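RNA from 4 THP1 cultures was hybridised to single-dye Agilent arrays. The authors deposited 1 scanner file per array, whose processed intensity is background-subtracted within the array, with dim spots set to a surrogate value. The submitters' processing notes name Agilent Feature Extraction 10.5.1.1 and limma. A second deposited file holds log2 values by the authors and ranks the spots of each array as the scanner does (Spearman correlation 1) and has the same median of 6.54 in each column. It was used as an alternative. The scanner files carry hg19 coordinates, and for 8 of 8 member probes the accession matched the same symbol in RefSeq (GRCh38.p14).

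In R 4.3.3 with limma 3.58.1, log2 intensities of 43118 non-control spots were quantile normalised without the 232 to 301 spots per array marked as outliers, and spots of a probe were averaged. A probe was tested when it had a value on all arrays and was well above background on both arrays of a mimic (for probes printed 10 times, at more than 50% of spots): 22638 of 34127. lmFit and eBayes gave two-sided p-values with 4.14 degrees of freedom between mimics and 2.97 between experiments, adjusted by Benjamini-Hochberg. P-values rest on 2 experiments.

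The labels pair the arrays by experiment, and the deviations of arrays of the same experiment from their mimic means had a correlation of 0.271 across probes. The methods of the study name no block, so the block was an alternative, with 75th percentile scaling, normexp (offset 50), no filter or a stricter one on dim probes, marked spots kept, the deposited table, an intensity trend, a plain test per probe, no mimic term and leaving out each array.

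On simulated data for 22638 probes, 99 of 100 probes with a true log2 change of 3 and 90 of 100 with 1.5 passed adjustment between mimics, and 4.69% of unchanged probes had an unadjusted p under the threshold. Between experiments these were 100, 88 and 5.06%. In the measured data 2.20% of all tested probes had an unadjusted limma p below 0.05 between mimics. Both simulated sizes exceed every member log2FC between mimics, which was at most 0.19 in size. The simulation therefore gives no rate of detection for changes as small as those of the members.

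Members and lists were chosen with earlier results of these data known. All members were named, and of the pathway lists each gene called, each without detection, and DDIT3, ATF4, STK40, RFWD2, SPI1, CSF1R and CSF3R. AKT2, MAP2K4, CSF2RA, HP, S100A8 and S100A9 were named in addition, for their values. The 3 probes nearest the most variable member were also named. LYZ, on the target and myeloid lists, and FCGR1A were not matched and are not analysed here. Other marker lists held 3 genes each: on all 4 arrays, 1 T cell, 2 B cell, 3 erythroid and 1 megakaryocytic markers were detected.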

Additional observations from a re-analysis of the deposited data

How the results depend on the processing

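The count of members called between mimics was 0 under every alternative that kept all arrays, the replicate block included, and 0 to 1 when an array was left out. That 1 was CEBPD. Between experiments 1 member was called, against 3 with normexp, 0 with no filter on dim probes (TRIB1 at an unadjusted limma p of 0.0632), 3 with an intensity trend and 2 without the mimic term. The count of members detected on all arrays was 7 throughout. CEBPE kept its direction between mimics under every alternative (0.055 to 0.32 without an array), and the other 6 members did not: CEBPD was 0.0013 with normexp, and leaving out an array moved the log2FC of TRIB1 from −0.097 to 0.16, TRIB3 from −0.034 to 0.14, CEBPA from −0.22 to 0.0075, CEBPB from −0.023 to 0.22, CEBPD from −0.50 to 0.40 and CEBPG from −0.062 to 0.10. CEBPA between experiments was 0.011 with 75th percentile scaling. Of all tested probes, the 498 called between mimics became 265 with normexp, 1029 with no filter, 285 with an intensity trend, 894 with the block and 516 to 1379 without an array. The cause was not tested. Leaving out an array was not run between experiments, since no residual degrees of freedom remain. Only 2 arrays per mimic and the low signal of TRIB2 limit what can be detected.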
